A study of Emberiza melanocephala with 4 samples.

Results

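In all, 6 genes of nerve cells were followed: SNAP25, GAP43, STMN2, SLC32A1, CPE and OLFM1, which serve synaptic vesicle fusion, axon growth, transmitter loading and peptide secretion. They were selected by gene name, among 278 loci with a gene symbol and 750 loci in all, and with their listing in these libraries already known. Where they were listed is therefore a description and not a finding. RNA came from wild-caught black-headed buntings (Emberiza melanocephala), migratory songbirds, and was sequenced by pyrosequencing, a method of low depth and long reads. There are 4 libraries, from hypothalamus and liver under short days (SD) and under long days (LD). How many birds stand behind a library, and their age and sex, the sources used here do not say. Groups follow the titles, since the seasonal state recorded for 2 libraries, LD hypothalamus and SD liver, contradicts the title. Since each group is a single library, differences have no replicate check, no error can be given and no test was made.

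Nerve cells release transmitters when a vesicle fuses with the cell membrane. This step is driven by SNARE proteins, and SNAP25 is one of those at the synapse. Neuropeptides travel in larger granules, where precursor proteins are cut and then trimmed by carboxypeptidase E, the product of CPE. GAP43 and STMN2 are proteins of growing and regenerating axons, and SLC32A1 fills vesicles with GABA or glycine. OLFM1 encodes a secreted glycoprotein of the nervous system. In birds as in mammals the hypothalamus is rich in peptide-secreting and GABA-releasing neurons, while the hepatocytes of the liver secrete plasma proteins without such regulated granules.

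The tissue labels were set beside marker genes before the levels were compared. Of 27 hepatocyte markers, 2 were listed in the library labelled SD hypothalamus, none in LD hypothalamus, 2 in that labelled SD liver and 1 in LD liver. Their summed level, in FPKM (read coverage of a transcript scaled to all mapped sequence), was 338 for SD hypothalamus, 666 for SD liver and 20.9 for LD liver. Those listed were APOA1, an apolipoprotein secreted by hepatocytes, and ONECUT1, a liver and pancreas transcription factor. ALB, TTR, FGA, FGB and FGG, which encode plasma proteins made by hepatocytes, were listed in no library under their symbols. Of 13 neuron markers, 4 were listed at all, and these are SNAP25, GAP43, STMN2 and SLC32A1 themselves. They were listed in the libraries labelled LD hypothalamus (2 markers, 329 FPKM in sum) and LD liver (4 markers, 561 FPKM in sum). Neuron markers were thus listed in a library labelled liver and hepatocyte markers in 1 labelled hypothalamus. The neuron markers listed are members chosen with their listing known, so they give no separate check of the labels. The other neuron markers, among them SYT1 and SYP, were listed in no library under their symbols. Of the other types, 2 of 14 astrocyte markers and 1 of 13 myelin markers were listed in the same LD libraries. The astrocyte markers summed to 97.0 FPKM in LD hypothalamus and 301 in LD liver. Of these, SPARC, a matrix glycoprotein, had 41.5 and 244 FPKM on different transcript models, and GJA1, a gap junction protein, had 55.4 and 57.2 FPKM. The myelin marker was GPM6B, a proteolipid of glial and neuronal membranes, with 91.2 and 87.1 FPKM. An endothelial marker, CLDN5, was listed in LD hypothalamus alone (13.9 FPKM). Of 7 muscle markers, PVALB, a calcium buffer that some neurons also make, was listed in LD hypothalamus (205 FPKM) and LD liver (15.9 FPKM). Its transcript models differed between these libraries, and its aligned bases were 1330 and 860. No marker of microglia, red blood cells or pituitary was listed anywhere. The part of these other cell types in the levels described next was not tested. In tissue RNA, fewer cells of a type and less RNA per cell cannot be told apart. Library names here are those of the labels.

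None of the 6 genes was listed in either SD library, and no transcript of any name on either strand lay within their spans there. In LD hypothalamus 4 were listed by name, SNAP25, OLFM1, CPE and GAP43. In LD liver 5 were listed by name, SNAP25, OLFM1, STMN2, SLC32A1 and GAP43, and CPE was represented there by 2 unnamed assembled transcripts over its exons. Of all 278 loci with a symbol, 69.4% were listed in LD libraries only, 22.7% in both LD libraries and no SD library, and 30.6% in LD liver alone. Another 16.2% were listed in LD hypothalamus alone. The SD libraries listed 36 and 67 loci with a symbol, against 131 in LD hypothalamus and 186 in LD liver. A locus missing from a file is not a locus at 0. An assembled transcript was listed from a coverage of 2.5 reads per base upward, which corresponds to 158 FPKM for SD hypothalamus and 120 for SD liver. The LD hypothalamus level of SNAP25 corresponds to a coverage of 4.59 for SD hypothalamus and 6.03 for SD liver. That of OLFM1 corresponds to 3.18 and 4.19, but it sums 2 reference transcripts, which stood singly at 128 and 73.7 FPKM. The LD hypothalamus level of CPE corresponds to 1.38 and 1.81. Its summed level in LD liver corresponds to 5.50 and 7.24, but the sum adds 2 transcripts that do not overlap. Singly they stood at 194 and 155 FPKM. Joined, they gave 160 FPKM over their own exon length and 119 over the reference exon length, beside the 158 and 120 FPKM above. The levels of GAP43, STMN2 and SLC32A1 in the LD libraries correspond to coverages between 0.412 and 0.974 in the SD libraries. Reference transcripts, as which these genes were listed, had no such limit on the depth of coverage. However, all 282 listed with more than 1 exon, over the 4 libraries, had coverage in every exon. In the SD libraries 41 of 56 and 71 of 88 reference transcripts were listed below a coverage of 1, and 18 and 30 of those had more than 1 exon.

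**Figure D1:**
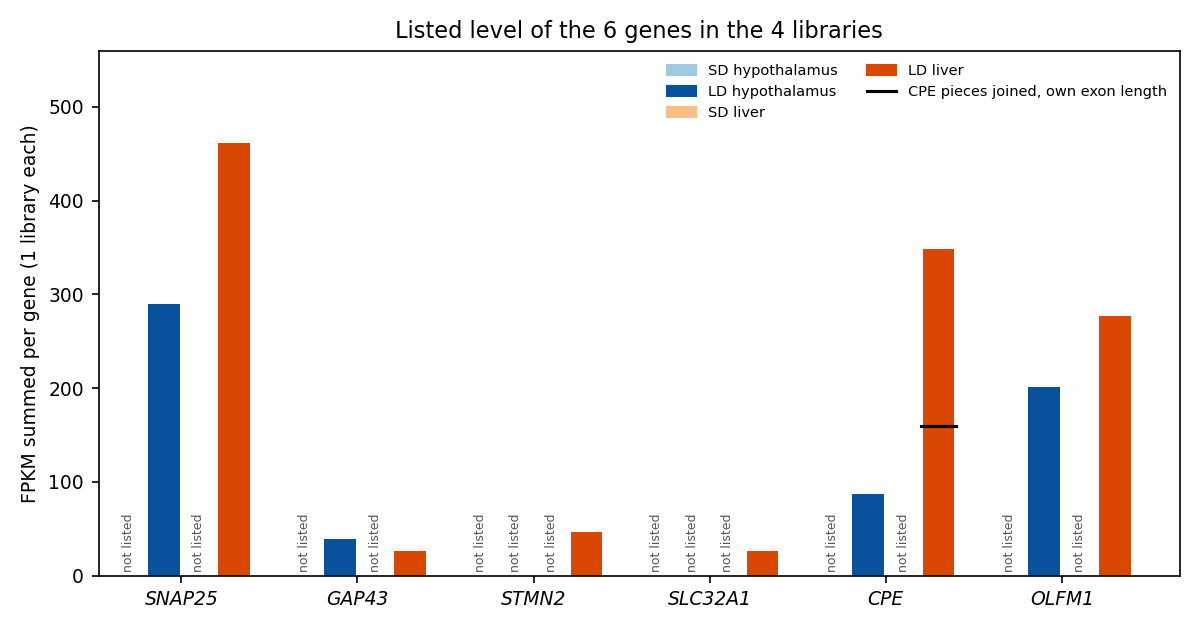
FPKM summed per gene (linear axis) for each gene in each of the 4 libraries, 1 bar per library and 1 library per group, with "not listed" where a file holds no transcript of the gene. SNAP25 is the highest bar in both LD libraries (290 and 462 FPKM), and the black line marks CPE in LD liver at 160 FPKM when its 2 pieces are joined over their own exon length.

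SNAP25 (ENSFALG00000011049), a SNARE protein of synaptic vesicle fusion, was the most abundant of the 6. It lies on the minus strand of scaffold JH603274.1, from 2338212 to 2404309, on the collared flycatcher build FicAlb_1.4 to which all coordinates belong. Its level was 290 FPKM in LD hypothalamus against 462 FPKM in LD liver, and it was listed in neither SD library. It ranked 3 among the 131 loci with a symbol in LD hypothalamus and 1 among the 186 in LD liver. Both libraries used the same reference transcript of 8 exons and 3727 bases, with 14353 and 30596 aligned bases. The log2 ratio of LD liver over LD hypothalamus, formed from FPKM plus a pseudocount of 1, was 0.67. Each of the 8 exons had the higher value in LD liver once exon coverage was put on the FPKM scale. The exon log2 ratios ran from 0.46 at exon 7 to 1.90 at exon 1, with 3 of the 8 at 2-fold or more. The ratio of exon 1 rests on a coverage of 0.747 in LD hypothalamus, from 210 aligned bases. Exon 6 was only just past 2-fold, at 1.01.

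The FPKM scale sets exon coverage against all aligned sequence of a library. On it, coverage along SNAP25 was low at the first exon, highest at exons 6 and 7 and lower again at the last exon in both libraries. In LD hypothalamus it was 56.3 at exon 1, between 379 and 452 over exons 2 to 5, 645 at exon 6, 907 at exon 7 and 253 at the last exon. In LD liver it was 212 at exon 1, between 686 and 961 over exons 2 to 5, 1298 at exon 6, 1252 at exon 7 and 367 at the last exon. The first exon was thus the lowest in both, and exons 6 and 7 were the highest in both, with the maximum at exon 7 in LD hypothalamus and at exon 6 in LD liver. Exon 5 was the lowest of exons 2 to 5 in LD hypothalamus and the highest of them in LD liver. The last exon makes up 76.0% of the transcript length and held 66.3% of its aligned bases in LD hypothalamus and 60.4% in LD liver. Without it the log2 ratio was 0.90.

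OLFM1 (ENSFALG00000001680), the secreted glycoprotein, was second in LD hypothalamus. It lies on the plus strand of JH603212.1, from 4466301 to 4504961. Its summed level was 201 FPKM in LD hypothalamus against 277 FPKM in LD liver, at ranks 11 and 6 of the loci with a symbol, and the log2 ratio was 0.45. The transcript models differed. LD hypothalamus listed both reference transcripts, ENSFALT00000001762 at 128 FPKM and ENSFALT00000001761 at 73.7 FPKM, which differ in their first exon and share the other 5. LD liver listed ENSFALT00000001762 alone. The first exon particular to ENSFALT00000001761 (4466301 to 4466558) had a coverage of 0.943 in LD hypothalamus and no listed transcript in LD liver. When only the transcript with the highest coverage was taken in each library, the log2 ratio became 1.11, past 2-fold.

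The exons of OLFM1 did not share a single ratio. Numbered over both models, the alternative first exon 2 and the shared exon 3 were lower in LD liver, at exon log2 ratios of -1.37 and -0.97. Exon 4 was about level at 0.05. Exons 5 and 6 were higher in LD liver, each at a log2 ratio of 2.43. Their FPKM-scaled values went from 78.4 and 75.4 in LD hypothalamus to 428 and 411 in LD liver. In LD hypothalamus these exons had only 229 and 107 aligned bases. Exon 2 had only 130 aligned bases in LD liver, at a coverage of 0.867. Whether these exon ratios differ beyond the sampling of few reads was not tested. The last exon stood at 0.37 and held 47.7% and 46.2% of the aligned bases. The gene's ratio of 0.45 thus averages exons that lie on either side of it, on 4033 aligned bases in LD hypothalamus and 7225 in LD liver.

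CPE (ENSFALG00000011233), the carboxypeptidase of secretory granules, lies on the plus strand of JH603205.1, from 794509 to 851492. LD hypothalamus listed its reference transcript of 9 exons and 4468 bases at 87.3 FPKM, from 5175 aligned bases. LD liver did not list it by name. There, 2 assembled transcripts without a gene name lay on its exons, a first piece from 794654 to 834071 with 3 exons (423 bases, 194 FPKM) and a second from 835125 to 850628 with 6 exons (2918 bases, 155 FPKM). They hold 9486 aligned bases. The pieces do not overlap, and between them lie 1053 bases, of which 67 are the end of exon 3, 51 are the beginning of exon 4 and the others are intron. In LD liver the pieces held exons 1, 3, 4 and 9 in part, at coverages of 3.53, 1.64, 2.78 and 0.450. They held the other exons whole. Why the reference transcript was not listed in LD liver was not tested.

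The level of CPE in LD liver depends on how the pieces are combined. Their FPKM add up to 348, which gave a log2 ratio of 1.98, the sixth highest of the 142 loci listed in both LD libraries. Of these loci, which include assembled ones without a reference gene, 14.1% were 2-fold or more higher in LD liver and 12.7% were 2-fold or more lower. The sum adds the levels of separate stretches of the same gene. When the aligned bases were divided by the joined exon length of 3341 bases, the level was 160 FPKM and the log2 ratio 0.86. Divided by the length of the reference transcript, as in LD hypothalamus, the level was 119 FPKM and the log2 ratio 0.45. Over the 5 exons with the same ends in both libraries the log2 ratio was 0.44. The 2-fold call for CPE thus held only for the summed pieces and for scales built on them or on the higher piece, and not on any of these joined or matched lengths.

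**Figure D2:**
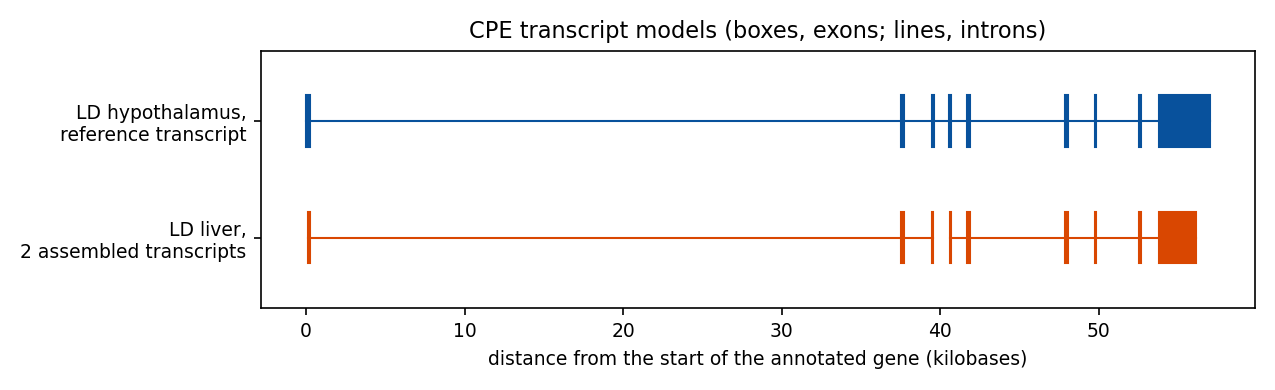
Transcript models of CPE in the LD libraries against the distance from the start of the annotated gene in kilobases, with boxes for exons and lines for introns. The single 9-exon reference transcript of LD hypothalamus stands above the 2 assembled transcripts of LD liver, which leave a gap of 1053 bases from within exon 3 to within exon 4.

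Among the 5 matched exons of CPE, 4 were higher in LD liver. Exon 5 had FPKM-scaled values of 585 in LD hypothalamus and 488 in LD liver, a log2 ratio of -0.26. Exon 6 was at 0.27, exon 7 at 0.76, exon 2 at 0.82 and exon 8 at 1.28. Exons 5 to 8 were the best covered of the gene in both libraries, with FPKM-scaled values of 314 to 641 in LD hypothalamus and 488 to 941 in LD liver. The last exon, 71.0% of the transcript length, was nearly empty in LD hypothalamus, with a coverage of 0.069 and 4.23% of the aligned bases. In LD liver the assembled part of that exon had a coverage of 0.450 and 10.9% of the bases. The reference model of LD hypothalamus counts the whole length of that exon, and the assembled pieces of LD liver count part of it.

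GAP43 (ENSFALG00000006031), a protein of growing axons, was the lowest of the listed members in both LD libraries. It lies on the plus strand of JH603247.1, from 1845622 to 1900701. Its level was 38.8 FPKM in LD hypothalamus against 26.1 FPKM in LD liver, from 656 and 591 aligned bases on the same reference transcript of 3 exons and 1275 bases. The log2 ratio was -0.56, the only negative ratio among the 4 members present in both. Exon 1 was nearly empty in both libraries, with coverages of 0.021 and 0.094. Exon 2 had 0.811 and 0.749, and held 77.2% and 79.2% of the bases. Exon 3 had 1.54 and 0.787. The exon log2 ratios were 1.29, -0.53 and -1.38, so the direction of the gene's ratio was that of exons 2 and 3, and the positive ratio of exon 1 rests on values of 1.58 and 5.31 on the FPKM scale.

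STMN2 (ENSFALG00000008602), a tubulin-binding protein of axons, was listed in LD liver alone. It lies on the plus strand of JH603220.1, from 4299196 to 4339548. Its level was 46.9 FPKM, rank 58 of the 186 loci with a symbol, from 2168 aligned bases on a reference transcript of 5 exons and 2600 bases. Coverage was 1.27 at exon 1, 3.54 at exon 2, 2.65 at exon 3, 1.94 at exon 4 and 0.316 at the last exon. The last exon holds 69.3% of the length and 26.2% of the bases, so the first 4 exons, with FPKM-scaled values of 71.5, 199, 149 and 109, lie above the level of the whole transcript. At its LD liver level, STMN2 would have had a coverage of 0.622 in LD hypothalamus. Its absence from that list does not give a level, and no ratio was formed.

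SLC32A1 (ENSFALG00000005684), the vesicular carrier of GABA and glycine, was listed in LD liver alone too. It lies on the plus strand of JH603233.1, from 3247152 to 3250740, the shortest span of the 6. Its level was 26.8 FPKM, rank 94, from 1334 aligned bases on a reference transcript of 2 exons and 2802 bases. Exon 2 carried 98.9% of the aligned bases at a coverage of 0.590, and exon 1 had a coverage of 0.027. The value of the first exon rests on 15 aligned bases. No ratio was formed against LD hypothalamus, where the same level would be a coverage of 0.355.

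**Figure D3:**
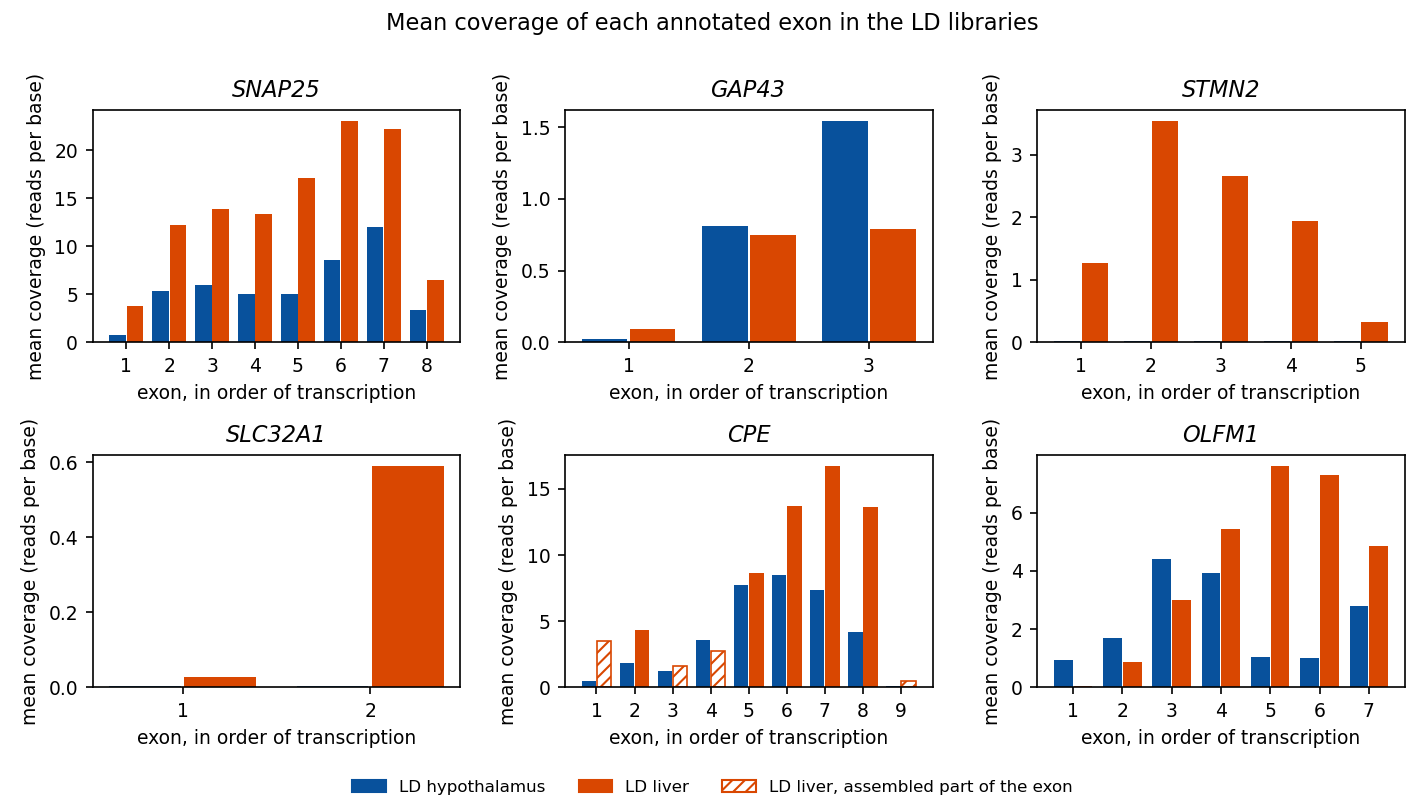
Mean coverage in reads per base (linear axes that differ between panels) of each annotated exon, in order of transcription, in LD hypothalamus and LD liver, with hatched bars where LD liver holds only part of an exon. STMN2 and SLC32A1 are not listed in LD hypothalamus and have no bar there, exons 1 and 2 of OLFM1 are alternative first exons, and exons 6 and 7 of SNAP25 are the highest in both libraries.

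The order of the genes by FPKM, a scale per transcript length, was SNAP25, OLFM1, CPE and GAP43 in LD hypothalamus. SNAP25 was 1.44-fold above OLFM1, OLFM1 2.31-fold above CPE and CPE 2.25-fold above GAP43. In LD liver SNAP25 was again first, at 1.67-fold the level of OLFM1, with CPE between them or below OLFM1 according to whether its pieces were summed (348 FPKM) or joined over their own exon length (160 FPKM). STMN2, SLC32A1 and GAP43 followed within 1.80-fold of each other. SNAP25 stood 7.49-fold above GAP43 in LD hypothalamus and 17.7-fold in LD liver. With 1 library each, no spread is available to say which neighbours in these orders differ.

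The 142 loci listed in both LD libraries had a median log2 ratio of 0.03 with quartiles of -0.52 and 0.66. OLFM1 lay inside the quartiles and the other members outside them, with the pieces of CPE summed. From the highest ratio down, CPE was number 6, SNAP25 number 36, OLFM1 number 41 and GAP43 number 110. SNAP25 was just past the upper quartile of this mixed set and GAP43 just past the lower. CPE with its pieces joined over their own exon length, at 0.86, was above the upper quartile too. Over the reference exon length (0.45) and on exons with the same ends in both libraries (0.44), CPE lay inside the quartiles. For SNAP25, OLFM1 and GAP43 the size of the ratio was below 2-fold, while 26.8% of the 142 loci were at least 2-fold apart in either direction. That share was not taken over loci with a reference gene alone.

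**Figure D4:**
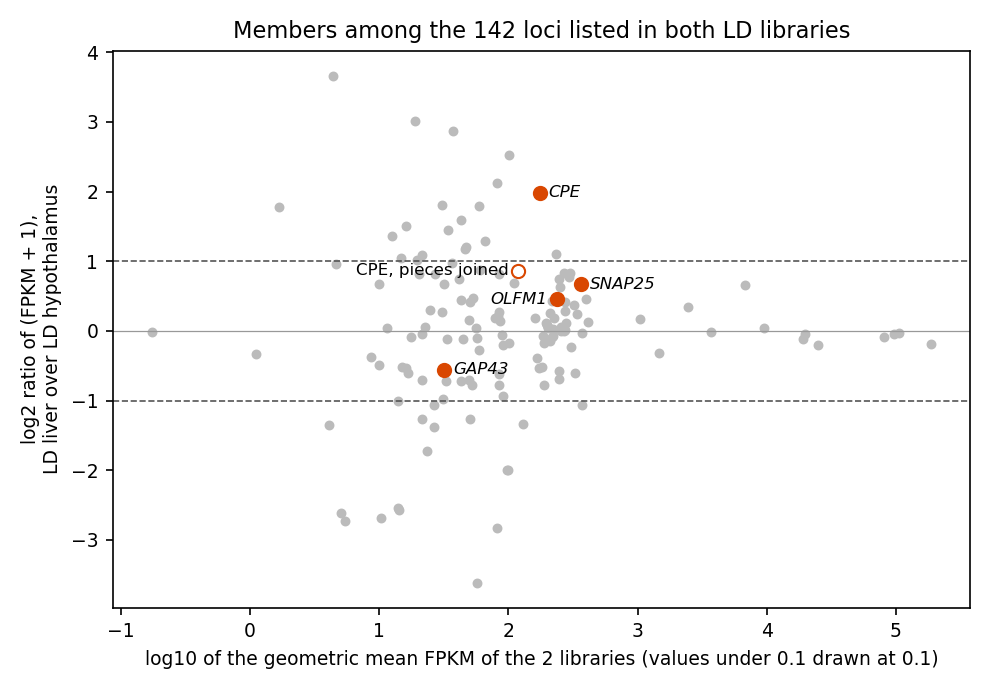
Log2 ratio of LD liver over LD hypothalamus against the log10 geometric mean FPKM for the 142 loci listed in both LD libraries, with the members in orange and dashed lines at 2-fold. SNAP25 (0.67), OLFM1 (0.45) and GAP43 (-0.56) lie between the dashed lines. CPE lies above them at 1.98 with its pieces summed, and inside at 0.86 with them joined over their own exon length (open circle).

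All 6 members are spliced genes, with a median of 5.5 exons in their listed reference models. Of these members, SNAP25, OLFM1, CPE and GAP43 had transcripts in both LD libraries and no SD library, while STMN2 and SLC32A1 did not. Of the other 59 genes listed in both LD libraries and no SD library, 24 (40.7%) had a reference model with more than 1 exon. The median of the 59 was 1 exon. Among all other 272 genes with a symbol, 154 (56.6%) had more than 1 exon.

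Other genes of the same pathways were taken from lists. The 6 pathway lists hold 209 genes, 203 of them outside the 6 members, and 5 of these 203 (2.46%) were listed, all in LD libraries. The share listed among all annotated genes was not analysed here, so this count has no background to be read against. Of the 59 genes of synaptic vesicles and fusion, SNAP25 was the only one listed, so that SYT1, the calcium sensor of fusion, VAMP2 and STX1A, the other SNARE partners, and SYP, a vesicle membrane protein, were in no file. Of the 33 genes of peptide processing and secretory granules, CPE was the only one, and the prohormone convertases PCSK1 and PCSK2 and the granins CHGA, CHGB and SCG2 were not listed. SLC32A1 was likewise the only one of 33 genes of transmitter carriers and synthesis, with GAD1 and GAD2, the enzymes that make GABA, not listed. None of 24 hypothalamic neuropeptides was listed in any library, SST among them. Also unlisted were NPY, TRH and VIP, which encode precursors of peptides that CPE is known to trim in mammals. A gene missing from these files may still be expressed, and the lists were matched by symbol, so members among loci without one could not be seen.

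The axon and cytoskeleton list had 5 of its 40 genes listed, which are GAP43, STMN2 and a further 3. TUBA1C, an alpha tubulin, had 105 FPKM in LD hypothalamus and 68.1 in LD liver (log2 ratio -0.62), and because alpha tubulins are near-identical its value is uncertain. BASP1, a membrane protein of growing axon tips that resembles GAP43 in its biochemistry, had 11.4 and 11.7 FPKM (0.03), from 110 and 151 aligned bases. STMN3, a relative of STMN2, was listed in LD hypothalamus alone at 40.6 FPKM, on 2 reference transcripts. STMN2 and STMN3 were thus each listed in 1 LD library, STMN2 in LD liver and STMN3 in LD hypothalamus. The olfactomedin list had 3 of 20 genes listed. Apart from OLFM1 these were LINGO1, a neuronal co-receptor that restrains axon growth, at 44.5 and 82.6 FPKM (0.88), and RTN4R, the Nogo receptor, at 9.99 FPKM in LD liver alone. The 3 non-members listed in both LD libraries had log2 ratios from -0.62 to 0.88 with a median of 0.03. None of them was 2-fold apart, beside 26.8% of all 142 loci, which include assembled loci without a reference gene. The median of the 142 was 0.03.

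The genes nearest to each member in level were named by a fixed rule, the smallest Euclidean distance of log2 (FPKM + 1) among genes with a symbol listed in exactly the same libraries. This likeness rests on 2 libraries at most. Nearest to SNAP25 among 62 genes were CKB, the brain-type creatine kinase (375 and 366 FPKM in LD hypothalamus and LD liver, distance 0.50), OLFM1 (0.90) and the 14-3-3 adaptor YWHAH (226 and 215 FPKM, 1.16). OLFM1 itself stood nearest to YWHAH (0.40), the proton pump subunit ATP6V1C1 (224 and 209 FPKM, 0.43) and the G-protein beta subunit GNB1 (150 and 171 FPKM, 0.81). The transcript models of CKB and of ATP6V1C1 differed between the 2 libraries. Their log2 ratios of LD liver over LD hypothalamus were -0.03 and -0.09 on FPKM. On aligned bases per aligned megabase, a scale not divided by length, they were -0.26 and 1.05. CPE, with its pieces summed, had no gene within a distance of 1, and its nearest were SPARC (1.17), OLFM1 (1.24) and GNB1 (1.28). SPARC was likewise listed on reference transcripts in LD hypothalamus and on an assembled transcript in LD liver. With the pieces of CPE joined over their own exon length, the nearest were instead LRRTM1, a leucine-rich-repeat protein of synapses (63.1 and 112 FPKM, 0.68), GNB1 (0.78) and the 14-3-3 adaptor YWHAE (77.0 and 93.6 FPKM, 0.79).

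GAP43 was nearest to the galactosyltransferase B3GALT1 (42.3 and 25.3 FPKM, distance 0.13), followed by SLITRK1, a leucine-rich-repeat protein of synapses (38.7 and 18.0 FPKM, 0.51), and the histone gene H3F3A (28.0 and 33.9 FPKM, 0.59). For the genes listed in LD liver alone the comparison rests on 1 value. Of 84 such genes, CHRM5, a muscarinic acetylcholine receptor (45.7 FPKM), CEBPG, a leucine-zipper transcription factor (43.9 FPKM), and APBA2, a neuronal adaptor protein (43.7 FPKM), were nearest to STMN2. Nearest to SLC32A1 were CLDN12, a tight-junction protein (26.7 FPKM), GTF2H5, a subunit of the transcription and repair factor TFIIH (26.9 FPKM), and SCAMP5, a membrane protein of secretory carriers (27.0 FPKM).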

How the data were processed

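RNA of 4 libraries, 1 per group, was analysed from the deposited transcript assemblies. Per the file headers, the authors assembled each library with StringTie 1.3.3b from its trimmed alignment, with gene models of the collared flycatcher (Ficedula albicollis, FicAlb_1.4, Ensembl release 89) as guide. Aligner and trimming tool: not given in the sources used here. Bunting reads were thus placed on another species' genome, and sequence that differs can be lost. The deposited FPKM, TPM and coverage of each transcript, and the coverage of each exon, stand in a text field. Within a library FPKM was a fixed multiple of coverage (for hypothalamus 63.3 in SD and 75.4 in LD, for liver 48.1 in SD and 56.2 in LD), which corresponds to 15.8, 13.3, 20.8 and 17.8 aligned megabases in this order. Exon coverage times this constant is called the FPKM-scaled value, and coverage times length gives aligned bases. Counting intervals were not formed, since read counts were not used here.

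Members were matched by gene name and FPKM was summed per gene. CPE in LD liver was taken from unnamed transcripts overlapping its exons on the same strand. Background loci joined transcripts with exons on the same strand that overlap (1 base or more) or with the same reference gene. Ratios are log2 of FPKM plus 1, which understates the change of low genes, and were formed only where both libraries list a locus. A 2-fold difference was called, with no test. The members and lists were chosen with earlier results of these data known. Named genes are the members, the listed genes of 6 pathway lists and the marker lists, and 3 nearest genes per member. A marker gene of the lists is not reported here. The joining of loci was tested on simulated data. Python 3.11.15, numpy 2.4.6, pandas 2.3.3 and matplotlib 3.10.9 were used.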

Additional observations from a re-analysis of the deposited data

How the results depend on the processing

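No paired analysis was possible because each group has 1 library, and no replicate could be left out. Over the alternatives run, the log2 ratio of LD liver over LD hypothalamus stayed between 0.64 and 0.90 for SNAP25. For GAP43 it stayed between -0.59 and -0.40. Direction and side of 2-fold were kept in all 11 alternatives of each, but not all of these could move the ratio. Both libraries list the same single transcript of SNAP25 and of GAP43. Taking the highest transcript only, or exons with the same ends, therefore left their values as they were. At least 150 aligned bases, the locus sum and unlisted loci at 0 could not change the ratio of any member listed in both LD libraries. For OLFM1 the ratio stayed between 0.42 and 0.63 in 10 alternatives. It was 1.11 with the highest transcript only, by construction because LD hypothalamus then loses its other isoform. For CPE it lay between 1.14 and 2.04 in 7 alternatives. It was 0.45 on aligned bases per aligned megabase (a scale not divided by length), 0.86 with the pieces joined over their own exon length and 0.45 over the reference exon length, and 0.44 both on exons with the same ends in both libraries and on those without the last exon, which are the same 5 exons. The locus-sum alternative for CPE is its reported value. The alternatives on joined pieces and on matched exons, and the count with overlapping assembled transcripts, were chosen after seeing the data. No ratio of STMN2 or SLC32A1 is reported under any alternative, since they are unlisted in LD hypothalamus. With unlisted loci at 0 both are counted as higher in LD liver by construction. The nearest genes of CPE with joined pieces were added after seeing the data as well.

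The count of loci at least 2-fold higher went from 20 to 13 with a pseudocount of 10 and to 350 with unlisted loci at 0. The count at least 2-fold lower went from 18 to 10 with at least 150 aligned bases in both libraries and to 156 with unlisted loci at 0, a setting that adds every locus listed in 1 library. Members listed by name fell from 4 to 1 in LD hypothalamus at a coverage of at least 2.5, and from 5 to 2 in LD liver at a coverage of at least 1 and also to 2 at 2.5. GAP43, STMN2 and SLC32A1 rest on coverages below 1, so their levels are the least secure.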
